A study of Mus musculus with 6 samples.

Results

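The genes described here write and erase DNA methylation, or make the cofactor that erasure needs: the DNA methyltransferase genes Dnmt1, Dnmt3a and Dnmt3b, the TET genes Tet1, Tet2 and Tet3, and the isocitrate dehydrogenase genes Idh1 and Idh2. They were chosen by name, through their Entrez gene IDs, and all 8 were found among the 24454 gene IDs of the table. Transcripts were counted in leukaemic blasts sorted from the bone marrow of NSG mice (NOD.Cg-PrkdcscidIl2rgtm1Wjl/SzJ), hosts without T, B or NK cells of their own. The recipients had received fetal liver cells of C57BL/6 origin that were transformed with an MLL-AF9 retrovirus. In the WT group (3 libraries) these cells came from wild-type littermates, and in the Stat3β TG group (3 libraries) from mice with Mx1-Cre recombinase and a Stat3β transgene. Recipients were given poly(I:C), which switches on Mx1-Cre, at week 4, and blasts positive for MLL-AF9 were sorted at week 6. Mx1-Cre is driven by an interferon-inducible promoter, and the labels give Cre for the Stat3β TG group only, so an effect of Cre and one of the transgene cannot be told apart. The labels do not say that replicates came from separate donors, so p-values measure only the spread between these samples.

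In mammalian cells DNA methylation is mostly placed on the cytosine of CpG dinucleotides. DNMT1 copies the pattern onto the new strand after replication, while DNMT3A and DNMT3B place methyl groups at unmethylated sites. TET enzymes oxidise 5-methylcytosine, the first step of its removal, and need 2-oxoglutarate, which IDH1 makes in the cytosol and IDH2 in mitochondria. In human acute myeloid leukaemia DNMT3A, TET2, IDH1 and IDH2 are recurrently mutated, and mutant IDH enzymes make 2-hydroxyglutarate, which inhibits TET enzymes. Gene-level RNA values show neither such mutations nor enzyme activity nor methylation itself.

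Whether reads can tell these relatives apart sets how far their values can be read, so the longest stretch of coding sequence that 2 family members share letter for letter is shown first (GENCODE M21, GRCm38, 5′ to 3′, with no letters in capitals).
Idh1 and Idh2: accaatgaccaggtcacca
Dnmt3a and Dnmt3b: gggcttctcctggtggcc
Tet1 and Tet3: tcgccaagtgggtgatc
These runs were 19, 18 and 17 bases long, and the other pairs within the DNMT and TET families shared 13 or 14. In no member did the exons of the chosen transcript overlap an annotated exon of another gene, on either strand. In 6 of the 8 no window of 50 bases, a length chosen here because the read length is not given in the sources used here, recurred in an annotated transcript of another gene. In Tet1 2 of 14320 windows did, and in Dnmt3b 491 of 4271 (11.5%) recurred in Dnmt3c, a rodent duplicate of Dnmt3b that was not among the gene IDs. The longest run shared by the pair, 287 bases from coding base 2164 of Dnmt3b, is given because reads from it could come from either gene.
Dnmt3b and Dnmt3c: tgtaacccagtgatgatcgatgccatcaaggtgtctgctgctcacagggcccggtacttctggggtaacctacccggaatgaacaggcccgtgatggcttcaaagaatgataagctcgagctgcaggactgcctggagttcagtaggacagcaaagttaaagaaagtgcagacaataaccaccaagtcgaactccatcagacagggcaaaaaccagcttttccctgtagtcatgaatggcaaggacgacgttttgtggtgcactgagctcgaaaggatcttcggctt
Values of Dnmt3b are therefore uncertain by the reads that Dnmt3c could share or remove.

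The promoters of the 8 genes were mostly rich in CpG, the site of most DNA methylation in mammalian cells. The RefSeq table (GRCm38.p6) held 13 start sites of the 8 genes, each with 250 bases before and 50 after the start, and 12 of the 13 windows had more CpG than the median of 7 over all 32851 windows, as did 48.6% of all windows. Counts ran from 2 CpG at the outermost start of Dnmt1 to 57 at Tet2, a number reached by 0.152% of windows. A window poor in CpG and a richer one from the methyltransferase family are shown by the bases upstream of Dnmt1 (chr9:20959889-20960138, minus strand, 2 CpG) and of Dnmt3b (chr2:153649199-153649410, plus strand, 16 CpG in 212 bases), both on GRCm38, outside annotated exons, and with each CpG in capitals.
Dnmt1 upstream: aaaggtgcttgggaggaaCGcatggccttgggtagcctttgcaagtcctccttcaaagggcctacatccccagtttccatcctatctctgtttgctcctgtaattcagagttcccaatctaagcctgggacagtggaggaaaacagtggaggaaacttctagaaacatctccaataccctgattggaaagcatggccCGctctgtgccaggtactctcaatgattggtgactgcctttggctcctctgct
Dnmt3b upstream: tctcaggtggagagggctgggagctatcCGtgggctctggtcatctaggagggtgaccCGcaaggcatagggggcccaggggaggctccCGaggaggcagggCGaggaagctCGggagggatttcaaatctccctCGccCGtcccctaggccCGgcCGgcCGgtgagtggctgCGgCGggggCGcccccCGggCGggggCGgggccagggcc
In the full windows Dnmt3b had 30 CpG, the other annotated starts of Dnmt1 had 12 and 33, and the starts of Dnmt3a had 18, 46 and 47, and the gene-level counts sum over its starts. The STAT-type motif TTCNNNGAA, which reads the same on both strands, was in 0 of the 13 windows and in 8.3% of all windows. That describes only the letters in these windows.

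Library depth and composition come before the comparisons. Recovered reads ranged from 21809788 to 51934498 per library, and reads of the 8 genes from 26 (Tet1 in Stat3β TG 2) to 23806 (Dnmt1 in Stat3β TG 1). The leading principal component (47.4% of the variance) placed WT 1 with the 3 Stat3β TG libraries and apart from WT 2 and WT 3. WT 1 and WT 3 had Xist values of 42699.5 and 45196, WT 2 had 835, and the 3 Stat3β TG libraries had 19.1 to 71.6. No Stat3β TG library matches WT 1 and WT 3 in this respect, and WT 2 also lay above all 3 Stat3β TG libraries. Stat3 averaged 11683 ± 4086 normalized counts in WT against 9669.7 ± 1555 in Stat3β TG (SD of 3 libraries), a gene-level sum that does not measure the short form alone. All 8 markers of myeloid blasts were detected, with Mpo, the granule peroxidase, between 9999 and 61536. Summed markers of T cells stayed at or under 55.5 and those of erythroid cells at or under 198. Cd3e and the globin genes Hba-a1 and Hbb-bs were at 0 in every library. How reads shared with gene copies were counted is not given, so a globin value of 0 does not show that such RNA was absent. The sums over the 6 libraries were 128 to 404 for NK cells, 711 to 2484 for megakaryocytes, 1211 to 2072 for B cells, 3049 to 5359 for stroma and endothelium and 10357 to 24685 for monocytes and macrophages, and their part in the results was not tested. The 10 markers of mature neutrophils summed to 92003 to 350602 in WT and 355286 to 498281 in Stat3β TG, groups separated by a narrow margin. All 10 were higher in Stat3β TG, where 48.6% of all genes tested were lower. Limma called 0 of the 10, as it called 0 of all 12642 genes tested. At an unadjusted limma p under 0.05, 4 of the 10 were higher, against 3.56% of all genes. In 4 of the 10 the groups did not overlap, with Stat3β TG higher, against 5.87% of all genes. In bulk samples fewer cells of a type and less RNA per cell cannot be told apart.

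The 8 genes covered a wide range of abundance. Compared per kb of coding length, which leaves out untranslated ends, Idh2 was highest at 3280.3 ± 567 normalized counts per kb (SD over 6 libraries), followed by Dnmt1 at 2969 ± 374 and Idh1 at 2409 ± 518. Idh2 and Dnmt1 differed by less than their spread. Dnmt1 lay above Idh1 by more than the SD of either but below it in Stat3β TG 3, and Idh2 held the first or second place in every library. Tet3 came next at 1247 ± 143 per kb and was next in order in each of the 6 libraries. Dnmt3a (835 ± 236 per kb) and Tet2 (614 ± 154 per kb) shared the fifth and sixth places, with Tet2 above Dnmt3a in WT 2 only. Dnmt3b was seventh at 271 ± 74.5 per kb and Tet1 last at 15.5 ± 7.59 per kb, both in every library. The most abundant TET gene was thus Tet3, with 60.6% to 74.7% of the TET sum per coding length, and Tet1 contributed 0.309% to 1.27%. Dnmt1 made up 70.2% to 78.5% of the methyltransferase sum on the same scale.

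**Figure D1:**
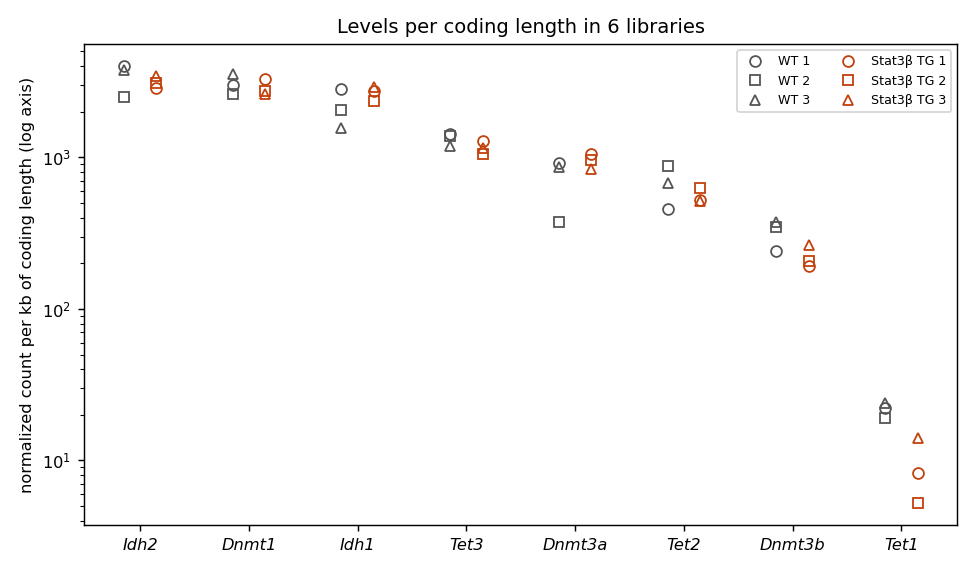
Normalized count per kb of coding length (log axis) for each of the 8 genes in the 3 WT (grey) and 3 Stat3β TG (orange) libraries, ordered by the mean over all 6, with marker shapes for replicate numbers. Idh2, Dnmt1 and Idh1 overlap between 1573 and 4019 per kb, and Tet1 lies at or below 23.9 per kb in every library.

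The comparison of Stat3β TG with WT sets cells with the transgene and Cre against cells with neither. No member passed the test: limma called 0 of 8 at an adjusted p under 0.05, as it called 0 of 12642 genes tested (0%), and edgeR and DESeq2 also called 0 of 8. At an unadjusted p under 0.05 limma had 1 member (Tet1), where 6.1% of all genes tested had such a p. It was lower in Stat3β TG (2.54% of all genes), and 0 members were higher (3.56%). EdgeR had 2 members, Tet1 and Dnmt3b (6.15% of all genes), both lower (3.57%) and 0 higher (2.58%). DESeq2 had the same 2 (7.68%), both lower (4.35%) and 0 higher (3.33%), and its adjusted p called 0.135% of all genes. Of the 8, 6 had lower means on the log scale in Stat3β TG and 2 (Dnmt3a and Idh1) higher, where 48.6% of all genes were lower. Their median log2 fold change was -0.14, against 0.012 for all genes tested. The groups did not overlap in 1 of the 8 (Tet1), where 10.8% of genes did not overlap (4.92% lower and 5.87% higher). For single genes, fold changes compare Stat3β TG to WT on the log2(normalized count + 1) scale with limma's standard error (SE).

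**Figure D2:**
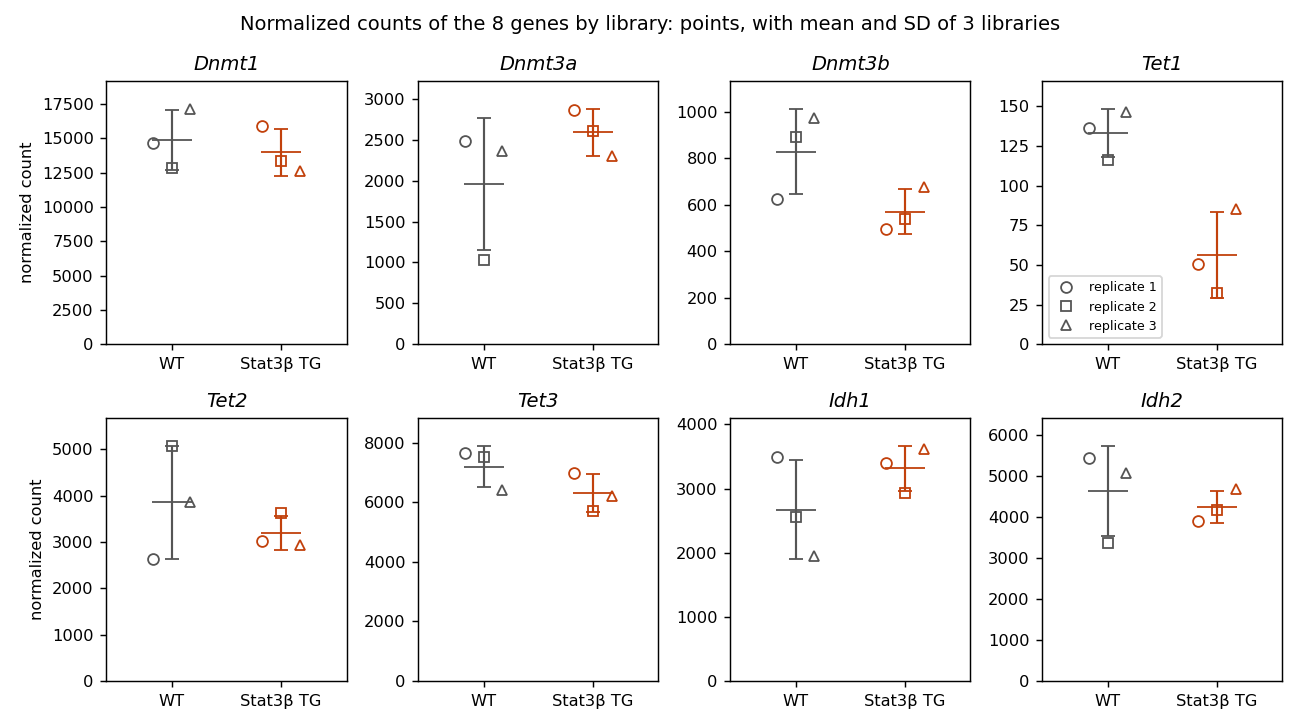
Normalized counts of the 8 genes in each library, with the mean and SD of 3 libraries per group (axes start at 0). The Tet1 points of Stat3β TG (32.0 to 85.4) all lie below those of WT (116 to 146), and the groups overlap in the other 7 genes.

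Tet1 had the largest difference of the 8. TET1 binds CpG-rich DNA through its CXXC domain, and MLL fusions are known to induce its gene in leukaemia. Tet1 was at 136, 116 and 146 normalized counts in WT 1 to 3 and at 50.9, 32.0 and 85.4 in Stat3β TG 1 to 3. All 3 WT libraries were above all 3 Stat3β TG libraries. The Stat3β TG libraries lay together on the first principal component, with WT 1, and all 3 had lower Xist than any WT library. The part of either in the Tet1 difference was not tested. The group means were 133 ± 15.2 and 56.1 ± 27.1 (SD of 3 libraries), 2.37-fold higher in WT, with a log2 fold change of -1.33 (SE 0.43, limma adjusted p = 0.668), and 2.34% of all genes were lower by more than 1 on this scale. The counts behind it were low, with 125, 86 and 104 reads in WT and 76, 26 and 152 in Stat3β TG. The exact 95% Poisson intervals, which cover counting error only, ran from 93.1 to 144 normalized counts in WT 2 and from 72.4 to 100.1 in Stat3β TG 3. These are the lowest WT and the highest Stat3β TG library, and their intervals overlapped, which is no test of their difference. Fits without 1 library gave log2 fold changes between -1.69 and -0.99, and the adjusted p was between 0.103 and 0.9999 over all 18 alternatives.

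Tet2 and Tet3, the abundant TET genes, did not differ past the test. TET2 is the family member most often lost in myeloid malignancy. Tet2 stood at 2629, 5069.6 and 3857 normalized counts in WT and at 3012, 3626 and 2943 in Stat3β TG. The lowest and the highest library were both WT, so the Stat3β TG values fell inside the WT range. Its means were 3852 ± 1220.05 and 3194 ± 376 (log2 fold change -0.23, SE 0.24, limma adjusted p = 0.752), and the difference was -0.0024 without WT 2 and 0.27 with WT 1 as the lone WT library. TET3 carries a CXXC domain like TET1. Tet3 stood at 7659, 7525 and 6394 in WT and at 6964, 5703 and 6223 in Stat3β TG, with WT 3 inside the Stat3β TG range. Its means were 7193 ± 695 and 6297 ± 633 (log2 fold change -0.19, SE 0.15, limma adjusted p = 0.685), and its difference without Stat3β TG 2 was -0.12.

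Dnmt3b was the second gene by size of p. Dnmt3b was at 623, 889 and 972 normalized counts in WT and at 497, 537 and 678 in Stat3β TG. WT 2 and WT 3 were above every Stat3β TG library, but WT 1 was below Stat3β TG 3. The means were 828 ± 183 and 571 ± 95.1 (SD of 3 libraries), with a log2 fold change of -0.52 (SE 0.23, limma adjusted p = 0.668). DESeq2 without WT 1, an alternative added after seeing the data that called 16.3% of all genes tested, called it (log2 fold change -0.71, adjusted p = 0.0195). EdgeR on the same libraries, which called 0.91% of all genes, did not (log2 fold change -0.71, adjusted p = 0.0927), and with WT 1 as the lone WT library limma gave -0.14.

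Dnmt3a, the other de novo methyltransferase gene, had the opposite sign. Loss of DNMT3A function is a frequent early event in human myeloid leukaemia. Dnmt3a was at 2491, 1027 and 2364 normalized counts in WT and at 2866, 2605 and 2298 in Stat3β TG. The Stat3β TG range held WT 1 and WT 3, and WT 2 was less than 0.5 times any other library. The means were 1961 ± 811 and 2590.1 ± 284 (log2 fold change 0.50, SE 0.33, limma adjusted p = 0.675). Without WT 2 the log2 fold change was 0.088, and with WT 2 as the lone WT library, assumed to vary like the others, it was 1.33 and called (limma adjusted p = 0.0305, where 5.85% of all genes were called). WT 2 was also the library with the lowest neutrophil marker sum, 92003, and the part of that difference in the Dnmt3a value was not tested.

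The balance of the de novo pair shows both differences in 1 quantity. The ratio of Dnmt3a to Dnmt3b, per coding length, was 3.79, 1.09 and 2.30 in WT 1 to 3 and 5.45, 4.59 and 3.21 in Stat3β TG 1 to 3. WT 1 lay above Stat3β TG 3, so the groups overlapped, and WT 2 had the lowest ratio. The balance depends on the length used: per mRNA length Dnmt3a made up 64.1%, 34.0% and 52.0% of the pair in WT 1 to 3 and 72.0%, 68.4% and 60.2% in Stat3β TG 1 to 3, so that Dnmt3b exceeded Dnmt3a in WT 2. Dnmt3l, whose product stimulates both enzymes without being catalytic itself, averaged 269.8 ± 76.5 in WT against 289 ± 120.05 in Stat3β TG (SD of 3 libraries).

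Dnmt1, the maintenance enzyme gene, was the most even of the methyltransferase genes. Dnmt1 was at 14691, 12810.0 and 17128 normalized counts in WT and at 15933, 13365 and 12644 in Stat3β TG. The highest library was 1.35 times the lowest, and the groups overlapped over most of their range. The means were 14876 ± 2165 and 13981 ± 1728 (log2 fold change -0.087, SE 0.17, limma adjusted p = 0.865), and the sign turned without WT 3 (0.020). DNMT1 acts at replication forks, and the 12 replication and proliferation genes listed beside it likewise held 0 called members, 0 at an unadjusted p under 0.05, and a median of 0.092 on the log2 scale. Rrm2 and Rrm1, subunits of the reductase that makes deoxynucleotides, and the helicase gene Mcm4 had the smallest p, at 0.18, -0.12 and 0.12.

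Idh1 and Idh2 differed in opposite directions by less than the spread within WT. Idh1 was at 3489, 2563 and 1953 normalized counts in WT and at 3401, 2933 and 3616 in Stat3β TG. WT 2 and WT 3 were below every Stat3β TG library, and WT 1 was within the Stat3β TG range. Its means were 2668 ± 774 and 3316 ± 349 (log2 fold change 0.35, SE 0.22, limma adjusted p = 0.673), with 0.14 without WT 3 and -0.079 with WT 1 as the lone WT library. Idh2 was at 5449, 3382 and 5084 in WT and at 3918, 4169 and 4687 in Stat3β TG, all of which lay between WT 2 and WT 3. Its means were 4638 ± 1104 and 4258 ± 392 (log2 fold change -0.097, SE 0.20, limma adjusted p = 0.873), and the sign turned without WT 1 (0.034). Per coding length Idh2 exceeded Idh1 in all 6 libraries, by 1.06 to 2.38 times.

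**Figure D3:**
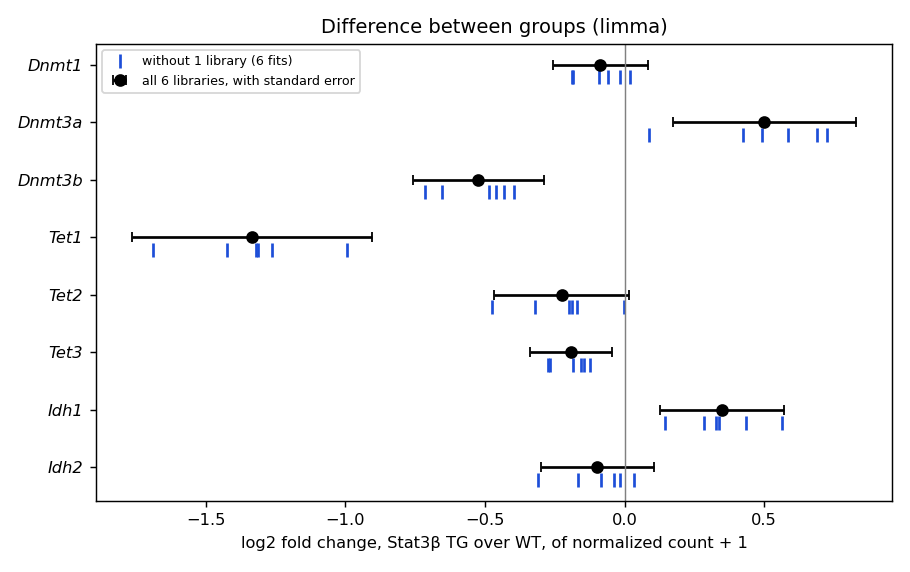
Log2 ratio, Stat3β TG to WT, for each of the 8 genes by limma (black, bar for the standard error) and in the 6 fits that leave out 1 library (blue marks). Tet1 lies farthest from 0, at -1.33, with marks from -1.69 to -0.99, and the marks of Dnmt1 and Idh2 fall on both sides of 0.

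Other genes of the pathway were taken from 7 lists with 111 genes, of which 85 were tested. Limma called 0 of the 85, and 4 had an unadjusted p under 0.05, namely D2hgdh, Ogdh and Ahcyl2 higher and Ddx4 lower (4.71% of the 85, against 6.1% of all genes). Ddx4 passed the filter on low values only through its WT values, so its p is counted here but not read as a difference. EdgeR and DESeq2 called 0 as well, with 4 and 6 of the 85 at an unadjusted p under 0.05 (6.15% and 7.68% of all genes). The median log2 fold change of the 85 was -0.011, with 39 higher and 46 lower, where 48.6% of all genes were lower. In 9 of the 85, Ddx4 among them, the groups did not overlap, where 10.8% of all genes did not overlap. Without WT 1 limma called 1 of them, Ogdh, where 2.74% of all genes were called.

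Among partners of maintenance methylation, 4 of 9 tested genes were higher and 5 lower, and none was called (0 by limma, 0 at an unadjusted p under 0.05). Uhrf1, which brings DNMT1 to hemimethylated DNA and was chosen for mention after its values were seen, averaged 7058 ± 2462 normalized counts in WT against 6726 ± 318 in Stat3β TG (SD of 3 libraries). Cdca7, which works with the remodelling enzyme HELLS, had the smallest p of the list, at 3941 ± 1639 and 5117 ± 669.5. Usp7, a deubiquitinase that binds DNMT1 and UHRF1, and Uhrf2 had log2 fold changes of -0.15 and 0.14.

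Readers of methylated CpG were lower in 7 of 10 tested genes, where 48.6% of all genes were lower. The median of the 10 was -0.16 on the log2 scale, and limma called 0 of them (0 at an unadjusted p under 0.05). Mbd1 was at 3474, 3675 and 4285 normalized counts in WT and at 3270, 3098 and 3019.8 in Stat3β TG. Its groups did not overlap, as was so for 10.8% of all genes tested. Its means were 3811 ± 422 and 3129 ± 128 (log2 fold change -0.28, SE 0.14, limma adjusted p = 0.668). Zbtb38, a zinc finger reader, had means of 1719 ± 900.2 and 946 ± 261.

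For TET partners and base excision repair, which replaces oxidised bases, 8 of 15 tested genes were higher and 7 lower, and limma called 0 (0 at an unadjusted p under 0.05). Gadd45a, a stress-induced gene tied to repair-based demethylation, was at 4000, 4165 and 4012 normalized counts in WT and at 2794, 3716 and 1312 in Stat3β TG. Its groups did not overlap, and the log2 fold change was -0.76 (SE 0.34, limma adjusted p = 0.668). Gadd45g was at 433, 1071 and 4283 in WT, a spread set by WT 3, and at 428, 529 and 304 in Stat3β TG. Neil1, a DNA glycosylase gene, was at 131 ± 49.9 and 216 ± 34.2. Tdg, the glycosylase that removes the oxidised bases TET enzymes make, was listed at 0 to 4.93 normalized counts. It was too low to test, and how reads shared with gene copies were counted is not given in the sources used here.

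Enzymes that make or use 2-oxoglutarate and its competitors were higher in 13 of 25 tested genes and lower in 12, and limma called 0 (2 at an unadjusted p under 0.05). D2hgdh, whose product oxidises D-2-hydroxyglutarate back to 2-oxoglutarate, was at 654, 303 and 436 normalized counts in WT and at 804, 809 and 703 in Stat3β TG. All Stat3β TG libraries were above all WT libraries. The means were 465 ± 177 and 772 ± 59.5 (log2 fold change 0.80, SE 0.29, limma adjusted p = 0.668). Ogdh, the catalytic subunit of the complex that uses up 2-oxoglutarate in the citric acid cycle, was at 8472, 4401 and 5275 in WT and at 9060, 7788 and 9082 in Stat3β TG, with WT 1 inside the Stat3β TG range. Its log2 fold change was 0.57 (SE 0.24, limma adjusted p = 0.668), and 0.84 without WT 1 (limma adjusted p = 0.0476). Bcat2, a mitochondrial transaminase, was at 2729.5 ± 786 and 3446 ± 259.

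Genes of the methyl donor cycle, which supplies S-adenosylmethionine to the methyltransferases, were higher in 5 of 13 and lower in 8, with 0 called by limma (1 at an unadjusted p under 0.05). Ahcyl2, a relative of S-adenosylhomocysteine hydrolase, averaged 479.6 ± 164 normalized counts in WT against 731 ± 60.9 in Stat3β TG (log2 fold change 0.66, SE 0.28, limma adjusted p = 0.668), with no overlap. Ahcy itself, which clears the methyltransferase inhibitor S-adenosylhomocysteine, was at 521, 529 and 522 in WT and at 357, 415 and 448 in Stat3β TG. These groups did not overlap either, in the other direction (log2 fold change -0.37, SE 0.20, limma adjusted p = 0.668). Mat2a, which makes S-adenosylmethionine, had means of 6977 ± 1039 and 5697 ± 492.

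**Figure D4:**
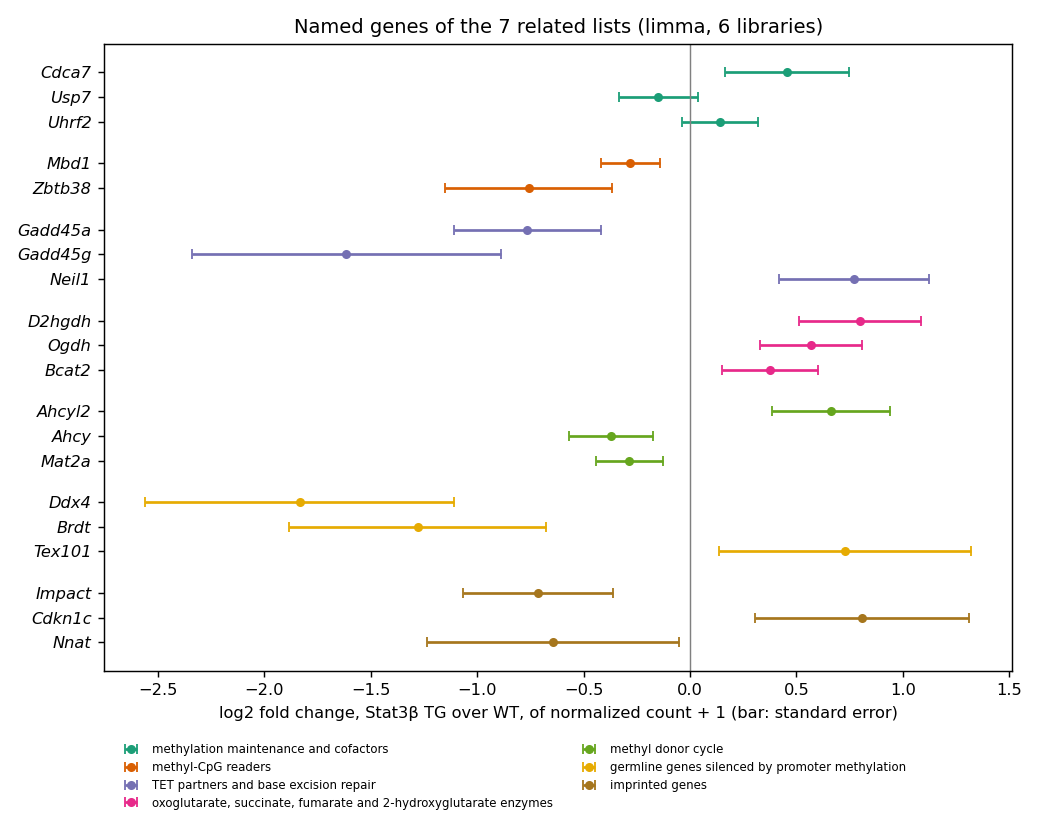
Log2 ratio, Stat3β TG to WT, with its standard error (limma, 6 libraries) for the genes named here from the 7 related lists, grouped by list. D2hgdh and Ahcyl2 lie right of 0 at 0.80 and 0.66, Ahcy and Gadd45a left of it at -0.37 and -0.76, none passed the adjusted threshold, and Ddx4 entered the test only through its WT values.

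Some genes depend on DNA methylation for their own silence or for their parental pattern. Of 14 germline genes of the first kind, 8 were too low to test, and Mael, Asz1 and Zfp42 were at 0 in all 6 libraries, where 3 reads, the limit a count of 0 allows, equal 1.69 to 4.22 normalized counts. Ddx4, a germ cell helicase gene, was at 22.9, 17.6 and 12.7 in WT and at 4.68, 1.23 and 9.55 in Stat3β TG, and passed the filter on low values only through the group where it was high, so its difference is given as values alone. Of the 6 germline genes tested, 3 were higher and 3 lower, and limma called 0 (1 at an unadjusted p under 0.05, Ddx4). Brdt and Tex101, testis genes, had log2 fold changes of -1.28 and 0.73. Of 16 imprinted genes 7 were tested, 3 higher and 4 lower with 0 called by limma (0 at an unadjusted p under 0.05), and Impact, Cdkn1c and Nnat, those with the smallest p, had log2 fold changes of -0.71, 0.81 and -0.64.

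By Pearson correlation of log2 values over the 6 libraries, among 10971 other genes averaging at least 50 normalized counts, the genes most like Dnmt3a were Gfi1 (0.998) and Tmc7 (0.997). Gfi1, a repressor that guides granulocyte development, was at 7405, 3382 and 7165 in WT and at 8262, 7353 and 6788 in Stat3β TG, so it shared the low value of WT 2. Those most like Dnmt3b were Epop (0.994) and Gid8 (0.994), and those most like Tet1 were Kpnb1 (0.987) and Mtx3 (0.985). Smarca4 and Nxt2 came closest to Dnmt1, H2-Q10 and Rbm42 to Tet2, Knl1 and Vps4b to Tet3, Kantr and Zfp322a to Idh1, and Dscc1 and Vkorc1 to Idh2, with correlations of 0.973 to 0.996. These describe likeness over 6 libraries that share group, depth and composition differences, and carry no test.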

How the data were processed

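RNA sequencing measured transcripts in 6 libraries, 3 WT and 3 Stat3β TG, grouped by sample title. FastQC, STAR, DESeq2 and the build GRCm38 (mm10) are named in the submitters' processing notes, while the sources used here give no versions, counter, strand handling or filters. The authors deposited normalized counts per gene, in unit a signal. In each library 100% of values (146724 in all) were whole multiples, within 0.001, of 1 step, taken as 1 read, so whole reads were recovered. Symbols came from the NCBI table of GRCm38.p6 (24376 of 24454 IDs matched).

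Genes reaching 10 normalized counts in 3 or more libraries, 12642 in all, entered the fit on log2(normalized count + 1) with limma 3.58.1 (trend, robust, two-sided, group only, Benjamini-Hochberg, threshold 0.05) in R 4.3.3. EdgeR 4.0.16 (quasi-likelihood) and DESeq2 1.42.0 were run on the recovered reads as alternatives. Other alternatives changed the pseudocount, filter or scaling, added the replicate number, or left out libraries. On simulated counts over 12528 genes, limma called 23 of 100 genes changed 2-fold and 76 of 100 changed 4-fold, with 10 unchanged genes called. Each simulated gene varied independently, without the differences that the real libraries share, so these counts do not give the power for the 8 genes. The genes and lists were chosen with earlier results of these data known. Named were all 8 genes, Stat3, in each list the genes with an unadjusted p under 0.05 or the 3 smallest p, and the 2 genes most like each member. A gene this rule names is not reported here. Dnmt3l, Uhrf1 and Tdg fall outside this rule and were picked with their values in view. Coding and mRNA lengths are those of the longest principal transcript in GENCODE M21.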

Additional observations from a re-analysis of the deposited data

How the results depend on the processing

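Over 18 alternatives for each of the 8 genes, 134 of 144 log2 fold changes kept their direction and their side of the threshold. The sign turned in 8. With 1 library left out, Dnmt1 ran from -0.19 to 0.020 (without WT 3), Idh2 from -0.31 to 0.034 (without WT 1) and Stat3 from -0.47 to 0.034 (without WT 2). Without WT 1, alternatives added after seeing the data gave Idh2 0.0038 by edgeR and 0.00052 by DESeq2. Without both WT 1 and WT 3, Dnmt1 was 0.12 and Idh2 0.33, and without both WT 2 and WT 3, Tet2 was 0.27, Idh1 -0.079 and Stat3 0.25. In 2 cases a member passed: Dnmt3a without both WT 1 and WT 3 (1.33) and Dnmt3b by DESeq2 without WT 1 (-0.71), so 1 member was called in each of those fits and 0 in the others. Over all genes limma called 0 and DESeq2 17. Leaving out 1 library gave 0 to 346 calls over all genes, with 346 without WT 1 and 5 without WT 2, and 0 to 1 among the other pathway genes. Without both WT 2 and WT 3 limma called 9 genes, and without both WT 1 and WT 3 it called 740, of which 7 were other pathway genes. Without WT 1 edgeR called 115 genes (0.91% of all genes), and DESeq2 called 2023 (16.3%), of which 13 were other pathway genes. These counts of other pathway genes stand against 85 tested with all 6 libraries. The causes were not tested. Fits without 2 WT libraries rest on 1 WT library, assumed to vary like the rest.

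With the replicate number as a term (replicate block), limma called 0 genes and the Tet1 log2 fold change was -1.33 (adjusted p = 0.658). Same-numbered libraries had correlations of 0.141, 0.0995 and -0.107 between their deviations from the group means, so the numbers were not taken to pair them. Per kb of mRNA length in place of coding length, the means over 6 libraries were 2688 for Dnmt1, 235 for Dnmt3a, 162 for Dnmt3b, 6.58 for Tet1, 384 for Tet2, 1135 for Tet3, 1300 for Idh1 and 2549 for Idh2. Dnmt1 then stood first and Tet1 remained last. The Tet3 transcript used is short beyond its coding part (5944 bases, 5409 of them coding), which raises its level on that scale. Tet1 had the fewest reads of the 8 genes, 26 to 152 per library.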
